A study of Mus musculus with 9 samples.

Results

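The genes described here are those of the mast cell proteases and of the receptors that mark mast cells: Mcpt1, Mcpt2, Mcpt4, Cma1, Cpa3, Ms4a2 and Kit. They were taken by symbol from the gene names of the array files. A probe of that symbol was found for 6 of the 7, with 1 probe each, among the 15674 genes that the files name. Cma1 had no probe under its own symbol. RNA of the jejunum was read on Applied Biosystems arrays of a single colour, with 1 mouse per array, from male OF1 mice, an outbred stock, aged 7 weeks. The mice were generation 3 of a feeding trial and received feed B, feed K or feed G, with 3 mice per feed: mice 7, 8 and 10 on feed B, mice 1, 3 and 4 on feed K and mice 4, 8 and 11 on feed G. The sources used here do not say which letter stands for the custom maize diet, and none of them is treated as a control. Each sample was a 2 cm piece of gut wall from around the middle of the small intestine, with all layers and all cell types of the wall, taken at an hour of day that was neither recorded nor balanced between feeds.

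Mast cells are immune cells of barrier tissues that store proteases, histamine and proteoglycan in granules and release them when the IgE bound to their surface receptor meets antigen. In the mouse gut, mucosal mast cells lie in and under the epithelium and are known for the chymases encoded by Mcpt1 and Mcpt2, whereas mast cells of connective tissue type carry the chymases of Mcpt4 and Cma1, the carboxypeptidase of Cpa3 and tryptases. Mucosal mast cells are known to multiply during infections with intestinal worms, when Mcpt1 protein rises in gut and blood. Ms4a2 encodes the beta chain of the high-affinity IgE receptor, and Kit the receptor for stem cell factor, on which mast cells depend. Kit is also made by the interstitial cells of Cajal, the pacemaker cells of the gut muscle.

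Mcpt1, Mcpt2, Mcpt4 and Cma1 lie on mouse chromosome 14 in a cluster of serine protease genes, where the RefSeq order on GRCm38.p6 was Cma1, Cma2, Mcpt1, Mcpt2, Mcpt9, Mcpt4 and Mcpt8, followed by Ctsg and the granzyme genes up to Gzmb. Cpa3 lies on chromosome 3, Kit on chromosome 5 and Ms4a2 on chromosome 19. The sequence before the gene start is shown for the 3 genes with a RefSeq promoter entry whose signals stood highest in the same mouse, as described further on. They are the last 150 bases before the annotated start, read 5′ to 3′ on the strand of the gene, at chr14:56017814-56017963 on the plus strand for Mcpt1, chr14:56062311-56062460 on the minus strand for Mcpt4 and chr3:20242182-20242331 on the minus strand for Cpa3 (RefSeq, GRCm38.p6). Capitals mark GATAA, the core of the motif read by GATA transcription factors, a family with known roles in mast cells.
Mcpt1: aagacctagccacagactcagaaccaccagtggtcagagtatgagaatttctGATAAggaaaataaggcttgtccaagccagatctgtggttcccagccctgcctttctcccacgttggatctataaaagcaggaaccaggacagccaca
Mcpt4: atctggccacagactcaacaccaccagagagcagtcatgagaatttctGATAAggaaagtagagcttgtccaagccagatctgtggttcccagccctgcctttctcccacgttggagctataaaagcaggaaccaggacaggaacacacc
Cpa3: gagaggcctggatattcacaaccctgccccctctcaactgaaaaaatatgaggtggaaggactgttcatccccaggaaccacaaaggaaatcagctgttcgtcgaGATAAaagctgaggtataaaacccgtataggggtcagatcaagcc
Over the 250 bases before the start, the Mcpt1 and Mcpt4 sequences were 81.5% identical in a global alignment and shared an unbroken run of 53 bases, whereas the other pairs of the 6 members with an entry were between 38.6% and 50.9% identical. The motif (GATAA, or TTATC for the other strand) was present in 250 bases of 5 of these 6 members: it began 98 bases before the start in Mcpt1, 102 in Mcpt4, 45 in Cpa3 and 194 in Cma1, and Ms4a2 held it 3 times. Kit did not hold these letters. The same letters were present in 22.6% of all 32851 promoters searched, so their presence is a description only, and the sequences are those of the reference genome and not of OF1 mice.

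Signals of the members were low. A spot counted as detected where its signal-to-noise ratio reached 3, which held for 33.7% to 48.1% of all probes per array, and where the ratio was below 1 the deposited signal equals the standard deviation of the spot, so that it describes noise. Kit was detected on all 9 arrays, Mcpt2 on 5, Mcpt4 on 4, Mcpt1 on 3, Cpa3 on 2 and Ms4a2 on 1. Some mast cell markers with a probe are not among the 6. Of these, Tpsb2 (beta tryptase, named Mcpt6 in the files) was detected on all 9 arrays and Tpsab1 (named Mcpt7) on 0. Fcer1a (IgE receptor alpha chain) was detected on 1, that of mouse 3 of feed K, at a signal-to-noise ratio of 4.13. Hdc (histamine synthesis) was detected on 1, that of mouse 4 of feed K, at a ratio of 6.34. All 5 jejunal enterocyte genes with a probe were detected on all 9 arrays, as were 6 of 8 smooth muscle genes. The ileal genes Fabp6 and Slc10a2 go against a jejunal label in some mice: they were detected on 8 and 6 arrays, and their signal differed widely between mice, as given further on. In bulk tissue, fewer mast cells and less RNA per mast cell cannot be told apart.

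Mcpt1 and Mcpt2, the chymases of mucosal mast cells, were bright in 1 mouse. In deposited signal units, Mcpt1 was at 180, 85.0 and 293 in feed B mice 7, 8 and 10, none of them detected. In feed K it was at 104 in mouse 1, 6077 in mouse 3 and 320 in mouse 4, of which mouse 3 alone was detected, with a signal-to-noise ratio of 42.1. In feed G it was at 204, 409 and 149 in mice 4, 8 and 11, detected in mice 4 and 8. Mouse 3 of feed K thus stood alone, and the other 8 mice of the 3 feeds overlapped.

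Mcpt2 was at 117, 38.4 and 91.3 in feed B mice 7, 8 and 10, none detected. In feed K it was at 270, 4121 and 178 in mice 1, 3 and 4, all 3 detected, with a signal-to-noise ratio of 66.1 in mouse 3. In feed G it was at 56.6, 194 and 253 in mice 4, 8 and 11, detected in mice 8 and 11. Mouse 3 of feed K was again far above the others, and all mice of feed K were above all mice of feed B. The probe sequences are not part of the files, and Mcpt1 and Mcpt2 are close paralogs, so how far each probe also reads the other transcript was not tested.

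**Figure D1:**
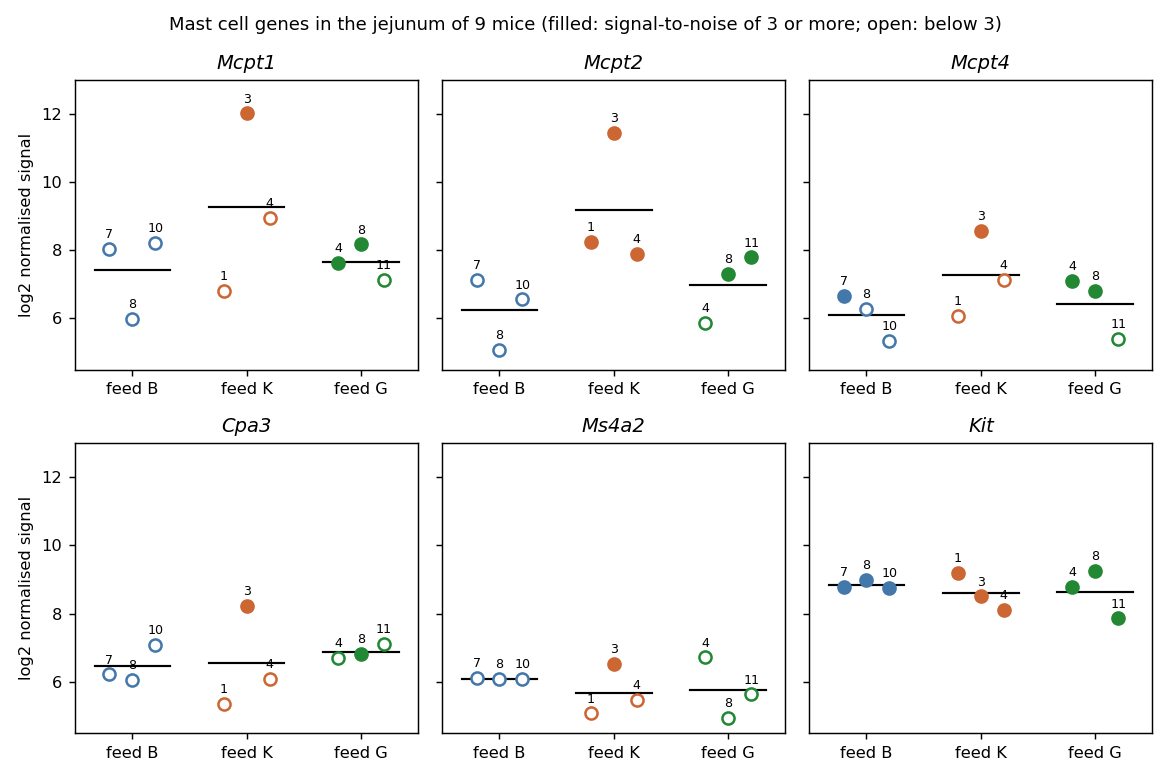
Log2 quantile-normalised signal (vertical axis) of the 6 genes with a probe, 1 point per mouse with its number, by feed; horizontal lines are feed means, filled points were detected (signal-to-noise ratio of at least 3) and open points were not. Mouse 3 of feed K is the highest point for Mcpt1, Mcpt2, Mcpt4 and Cpa3, at 12.01, 11.44, 8.57 and 8.22, whereas Kit is detected in all 9 mice and is not highest there.

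Mcpt4, a chymase of connective tissue mast cells, and Cpa3, the mast cell carboxypeptidase, showed the same mouse on top at lower signals. Mcpt4 was at 94.6, 99.0 and 42.7 in feed B mice 7, 8 and 10, at 65.7, 538 and 118 in feed K mice 1, 3 and 4 and at 137, 126 and 41.5 in feed G mice 4, 8 and 11. It was detected in mouse 7 of feed B, mouse 3 of feed K and mice 4 and 8 of feed G. Cpa3 was at 74.5, 87.8 and 131 in feed B, at 40.9, 409 and 62.6 in feed K and at 97.6, 128 and 147 in feed G, in the same order of mice, and it was detected only in mouse 3 of feed K and mouse 8 of feed G. The signal-to-noise ratio in mouse 3 of feed K was 10.4 for Mcpt4 and 9.34 for Cpa3. How far the Mcpt4 probe also reads the transcripts of other chymases was not tested. The feeds overlapped for Mcpt4, and for Cpa3 the other mice of feed K had the lowest deposited signals of all, neither of them detected.

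The remaining members did not follow. Ms4a2 was at 69.0, 89.7 and 69.4 in feed B, at 30.0, 94.2 and 42.6 in feed K and at 99.0, 30.6 and 50.5 in feed G, and its only detection was in mouse 3 of feed K at a signal-to-noise ratio of 3.44. These are values close to noise, with no order among mice. Kit was at 274, 327 and 429 in feed B, at 553, 512 and 197 in feed K and at 459, 886 and 269 in feed G, with signal-to-noise ratios from 5.33 to 12.0. Its highest mouse was mouse 8 of feed G and the feeds overlapped. Cma1, the alpha chymase, was represented by a pair of probes that the files call Mcpt5 and that carry its RefSeq accession; they were detected on 0 of 9 arrays, mouse 3 of feed K included, which says only that no signal above noise was measured.

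After quantile normalisation over the 9 arrays, the log2 signal of Mcpt1 in mouse 3 of feed K was 12.01, which was 18.1-fold the median of the other 8 mice and 8.31-fold the next mouse, mouse 4 of feed K, where it was not detected. Mcpt2 there was 18.8-fold the median and 9.22-fold the next mouse, mouse 1 of feed K, where it was detected. Mcpt4 was 4.30-fold the median and 2.70-fold the next mouse, mouse 4 of feed K, and Cpa3 was 3.39-fold and 2.14-fold, with mouse 11 of feed G next. In neither of these next mice was the gene detected. Of the other 8 mice, Mcpt1 was detected in 2, Mcpt2 in 4, Mcpt4 in 3 and Cpa3 in 1, so most of these folds are set against spots not above background. They are descriptions of 1 mouse and carry no test. Kit in the same mouse was at 0.821 of the median of the others.

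How unusual this height was among the genes of the array was counted over the 9436 tested genes none of whose spots had failed. Mouse 3 of feed K was the highest mouse for 6% of them, and it was at least 4-fold above the next mouse for 3 genes (0.0318%), which were Mcpt2, Mcpt1 and Lbp. Lbp, which encodes a lipopolysaccharide-binding protein of the acute phase, was named after its value was seen. It was 4.20-fold above the next mouse. The same count was between 0 and 3 genes for each of the other 8 mice. Tested genes with a failed spot were left out of it, among them the entry with the symbols Cma2, Mcpt9 and Mcptl, described further on. The mean of its probes in mouse 3 of feed K was 12.8-fold the next mouse. In that mouse the mean lacks a probe whose spot failed. The mouse was singled out by the members themselves, so these counts are a description of their height. The array of that mouse had the most failed spots, 1045 against 432 to 851 on the others, though the spots of the members on it had not failed. Any bearing of this on the heights was not tested.

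**Figure D2:**
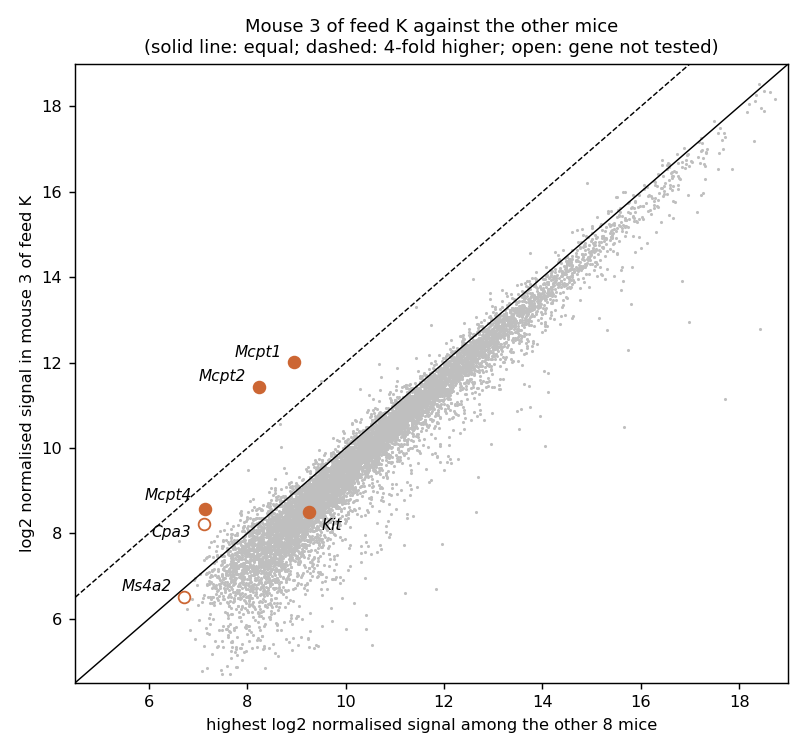
Each grey point is 1 tested gene, with its log2 normalised signal in mouse 3 of feed K (vertical axis) against the highest log2 normalised signal among the other 8 mice (horizontal axis); members are in orange, open where not tested. Mcpt1 and Mcpt2 lie above the dashed line of 4-fold, Mcpt4 and Cpa3 lie between it and the line of equality, and Kit and Ms4a2 lie below equality.

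The spread over the 9 mice was wide for the mucosal chymases and close to that of other genes for Kit. The SD of log2 signal was 1.71 for Mcpt1 and 1.80 for Mcpt2, and 0.297% and 0.233% of tested genes with no failed spot had an SD at least as large. It was 0.99 for Mcpt4, 0.83 for Cpa3, 0.61 for Ms4a2 and 0.47 for Kit, against a median of 0.41 over tested genes. From mouse 8 of feed B, the lowest mouse for both chymases, to mouse 3 of feed K the signal ranged 64.7-fold for Mcpt1 and 82.2-fold for Mcpt2. Neither was detected in that lowest mouse, so these ranges and SDs are measured in part from noise. Without mouse 3 of feed K, the ranges fell to 7.80-fold for Mcpt1 and 8.91-fold for Mcpt2, much of it between values that were not detected. Kit, which was detected in every mouse, ranged 2.61-fold with and without that mouse.

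The feeds were compared to ask whether diet moved the mast cell genes. No member passed the test. In the moderated F test of limma over the 3 feeds, 0 of the 4 members tested (Mcpt1, Mcpt2, Mcpt4 and Kit) had an adjusted p below 0.05, against 0% of all 9655 genes tested, and the same held for each pair of feeds. At an unadjusted p below 0.05 the F test counted 1 of 4 members, Mcpt2, against 5.37% of all genes, and with a mean-dependent prior variance in limma it counted the same number. For feed K minus feed B it again counted Mcpt2 alone (6.32% of all genes), and for feed G against feed B (5.74%) and feed G against feed K (4.54%) it counted 0 of 4. Cpa3 and Ms4a2 were detected on too few arrays to be tested.

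Mcpt2 had the largest difference between feeds among the members. Its mean log2 signal was 9.19 ± 1.96 (SD, n = 3) on feed K, 6.98 ± 1.00 on feed G and 6.25 ± 1.05 on feed B. Feed K exceeded feed B by 2.94 (SE 0.99, 95% confidence interval 0.66 to 5.21, limma adjusted p = 0.773), and the unadjusted p was 0.0174 in limma. An exact permutation of the 9 mice over the feeds (280 splits) gave p = 0.0429 for Mcpt2 before any adjustment. All 3 mice of feed K lay above all 3 of feed B, as they did for 6.31% of genes, and above all 3 of feed G, as for 7.42% of genes, but under median scaling and in the table of the series Mcpt2 on feeds K and G overlapped. For no member were all mice of feed G above all of feed B (6.3% of genes).

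Because Mcpt2 was not detected on any array of feed B, the size of that difference depends on the level assumed there. The level taken for each array of feed B was the higher of the spot itself and the dimmest detected probe. Against it, Mcpt2 was 6.72-fold higher on feed K, where all 3 mice were detected. Without mouse 3 of feed K it was 3.08-fold higher, with both remaining mice detected. Neither fold is a strict lower bound, since a noisy spot can go undetected above the dimmest detected probe. Without that mouse the log2 difference was 1.81 (SE 0.73, limma adjusted p = 0.823, unadjusted p = 0.0402). The difference between feeds K and B therefore did not rest on mouse 3 alone for its direction, but it did not pass the test with or without it. Against feed K, Mcpt2 on feed G was lower by a log2 difference of -2.21 (SE 0.99, limma adjusted p = 0.960), and without mouse 3 of feed K by -1.08.

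Mcpt1 averaged 9.26 ± 2.61 (SD, n = 3) on feed K, 7.64 ± 0.52 on feed G and 7.42 ± 1.24 on feed B in log2 signal. Feed K minus feed B was 1.84 (SE 1.19, 95% confidence interval -0.89 to 4.57, limma adjusted p = 0.840). With mouse 3 of feed K left out, that value was 0.47 (SE 0.84), and the gene was then detected on no array of feed K. Mcpt1 was detected on no array of feed B and on 1 of 3 of feed K. The difference is thus between means that rest largely on spots not above background, and no fold at an assumed level is given for it.

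Mcpt4 averaged 7.26 ± 1.25 (SD, n = 3) on feed K, 6.43 ± 0.90 on feed G and 6.09 ± 0.67 on feed B. Feed K minus feed B was 1.17 (SE 0.69, limma adjusted p = 0.829) and 0.52 (SE 0.62) without mouse 3 of feed K. Kit averaged 8.85 ± 0.13 on feed B, 8.63 ± 0.71 on feed G and 8.61 ± 0.55 on feed K. Its differences were -0.24 (SE 0.39, 95% confidence interval -1.14 to 0.66) between feeds K and B, as K minus B, and 0.03 (SE 0.39) for feed G minus feed K, both with limma adjusted p above 0.9. Scaling each array by its median in place of quantile normalisation turned the difference of Kit between feeds K and B to 0.16, so no order of feeds can be given for Kit. For Mcpt1 and Mcpt2 the feed means had the order K, G, B, in which neighbours did not differ beyond their spread. With 1 mouse left out, feed G minus feed B ranged from -0.48 to 0.63 for Mcpt1, so no order of feeds B and G can be given for Mcpt1. Mcpt4 had the same order after quantile normalisation, but in the table of the series feed G minus feed B was -0.19, so no order of feeds B and G can be given for it.

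**Figure D3:**
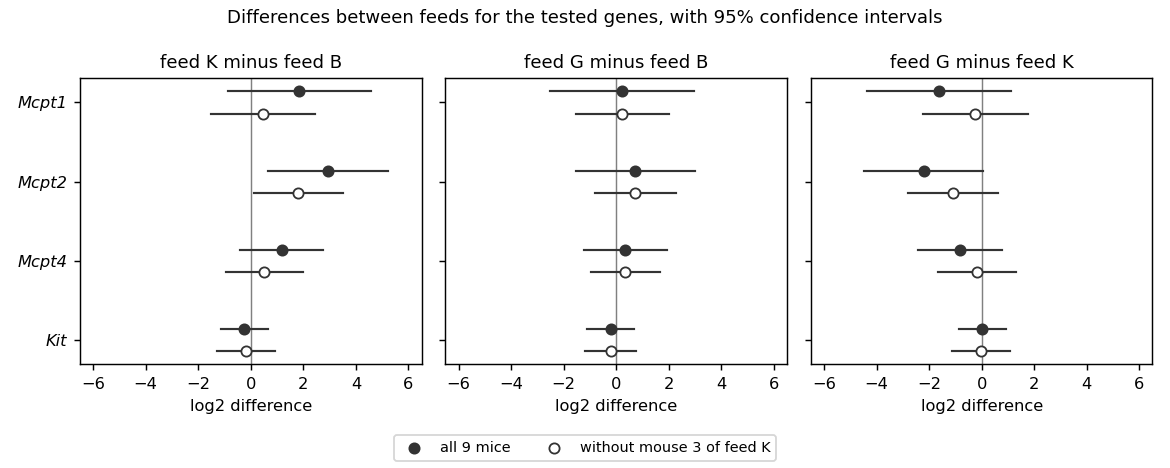
Log2 differences (horizontal axes) between feeds for the 4 tested members with 95% confidence intervals from limma, filled for all 9 mice and open without mouse 3 of feed K. The interval of Mcpt2 for feed K minus feed B lies above 0 in both cases before adjustment, and those of Mcpt1 and Mcpt4 span 0 and move towards it without that mouse.

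Over the 9 mice, Mcpt1 and Mcpt2 had Pearson r = 0.826 (exact permutation p = 0.0182, adjusted over 9435 genes 0.999 with Mcpt1 as reference) and Spearman rho = 0.433 (exact p = 0.250). Without the 2 mice farthest from the median of Mcpt1, which were mouse 8 of feed B and mouse 3 of feed K, r was -0.18, so the relation rested on those mice. Mcpt1 and Mcpt4 had r = 0.763 (exact permutation p = 0.0239, adjusted 0.999) and rho = 0.533 (exact p = 0.148), and r = 0.453 without the same 2 mice. With feed means subtracted, these 2 values of r were 0.779 and 0.681. The pair of Mcpt2 and Mcpt4 had r = 0.586 (exact permutation p = 0.104, adjusted 0.981) and rho = 0.317 (exact p = 0.410), with r = -0.17 without those mice. Kit had r between -0.29 and 0.01 with the 3 chymases, with exact permutation p from 0.454 to 0.989 over 6 pairs in all. Mcpt1 was not detected in 6 of the 9 mice, Mcpt4 in 5 and Mcpt2 in 4, so each r among the chymases rests in large part on values not above background. No r was computed for Cpa3 and Ms4a2, which were not tested.

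Kit, as the only member detected in every mouse, was also set against the 5824 other genes detected on all 9 arrays. The 5 most alike by Pearson r over the 9 mice were Polr2b, which encodes a large subunit of RNA polymerase II (r = 0.960), 0610040B21Rik (r = 0.884), Caskin2 (r = 0.878), Hmgb3 (r = 0.876) and Cd81, a tetraspanin gene (r = 0.865). The smallest adjusted p among them was 0.286 (exact permutation test). Ano1, the chloride channel gene that marks interstitial cells of Cajal (named AU040576 in the files), was detected on 8 arrays and ranged 2.51-fold over the mice, near the 2.61-fold of Kit. The lowest mouse for Kit, mouse 11 of feed G, was the highest for Ano1. From which cells the Kit signal came was not tested.

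After quantile normalisation, the detected tryptase genes and serglycin, other components of mast cell granules, were not highest in mouse 3 of feed K. In deposited signal Tpsb2 was highest there, at 1107 against 242 to 996 in the other mice. Of 9 further granule genes as named in the files, 5 were tested and 0 passed limma at an adjusted p of 0.05, with 0 at an unadjusted p below 0.05, for feed K minus feed B or over all feeds. Over all tested genes the adjusted share was 0%, and the unadjusted share was 6.32% for feed K minus feed B and 5.37% over all feeds. Their median log2 difference for feed K minus feed B was -0.19, against 0.05 over all tested genes. Tpsb2 had log2 signals of 10.46, 9.83 and 9.69 in feed B mice 7, 8 and 10, 8.08, 9.56 and 9.98 in feed K mice 1, 3 and 4, and 9.59, 9.42 and 9.63 in feed G mice 4, 8 and 11. In mouse 3 of feed K it was at 0.939 of the median of the other mice. Tpsg1, a transmembrane tryptase gene, was at 0.937 of the median there and Srgn, the granule proteoglycan serglycin (named Prg in the files), at 1.95-fold, but not highest.

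Probes that carry the symbols Cma2, Mcpt9 and Mcptl together, genes of the same cluster, gave divided results. One such probe had a log2 signal of 10.62 in mouse 3 of feed K, and another 10.38, with signal-to-noise ratios of 25.9 and 35.4. Their next highest mice were at 9.07 and 7.03. On the third the spot in that mouse failed its quality flag, with a signal-to-noise ratio of -4.51. No gene can be named from these probes, since each carries several symbols. Of 7 granzyme and Ctsg genes with a probe at the far end of the cluster, 3 were tested, and 2 of those 3 were highest in mouse 3 of feed K. Gzmb (granzyme B), which mucosal mast cells and cytotoxic lymphocytes are both known to make, was at a log2 signal of 12.88 there, which was 7.14-fold the median of the others. Gzmd was 2.03-fold the median as the mean of a pair of probes that disagreed, 1 at a log2 signal of 10.40 and the other at 5.69 and not detected. Gzmf was highest in mouse 4 of feed K, and Gzmc, Gzmg, Gzmn and Ctsg were not detected in mouse 3.

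Among the genes upstream of mast cell activation and growth 0 were called between feeds, but neither was any other of the 9655 genes tested (0%). Of 15 genes of the IgE receptor and its signalling, 11 were tested, and 0 passed the adjusted threshold in any pair of feeds. At an unadjusted p below 0.05, limma counted 1 of the 11 for feed K minus feed B, against 6.32% of all genes. It counted 2 of the 11 for feed G minus feed K, against 4.54%. The median difference for feed K minus feed B was -0.41. Inpp5d, a lipid phosphatase that restrains the receptor, had the smallest p. It was detected on 2 of 3 arrays of feed B and on 0 of 3 of feed K. With each feed K spot set no lower than the dimmest detected probe of its array, feed B was 2.45-fold higher. That fold is not a strict lower bound, since a noisy spot can go undetected above that level. For feed K minus feed B, limma gave an unadjusted p = 0.0064 and an adjusted p = 0.763. Of 20 genes of mast cell growth, homing and transcription, 8 were tested as named in the files and 0 passed. At the unadjusted level 1 of the 8, Itgb6, was counted for feed K minus feed B (limma unadjusted p = 0.0416). Il3, Il4, Il9 and Il13, cytokines that drive mast cell growth, and Gata1 and Gata2 were detected on 0 of 9 arrays. Kitl, which encodes stem cell factor, was detected on all 9 with log2 signals from 8.76 to 10.33, and Il33, an alarmin (named 9230117N10Rik), on all 9 with 11.12 to 12.76. Of 10 genes for amines and lipid mediators, 5 were tested, and 0 passed. The same held for 5 tested of 7 genes of serpins and other inhibitors, and for 3 tested of 8 granzyme and Ctsg genes at the end of the chymase cluster. Of those 3, Gzmf was counted at the unadjusted level for feed K minus feed B (limma unadjusted p = 0.0409).

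Markers of other cells moved with the chymases in mouse 3 of feed K. Among 10 genes of intraepithelial and other T cells, 9 had a probe and 8 were tested, and 7 of those 8 were highest in that mouse, against 6% of all tested genes. The median of the 8 in log2 units was 2.60 above the other mice, against -0.02 over all tested genes. Gzma (granzyme A) was 7.75-fold, Ccl5 7.43-fold, Cd3g 7.19-fold and Itgae, the integrin chain of intraepithelial lymphocytes, 5.15-fold the median of the other 8 mice, of which 4 had no detected Cd3g and 5 no detected Itgae. Cd3d was barely highest there, at a log2 signal of 9.03 against 8.93 in mouse 7 of feed B. Cd4 was not highest, at 7.29 against 6.15 to 9.03 in the other mice. The summed normalised signal of the list was 2001 to 10937 on feed B, 1931 to 38556 on feed K and 1649 to 13950 on feed G. None of its 9 genes was undetected on all arrays.

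In mouse 8 of feed G the T cell sum was 13950, the next highest after mouse 3 of feed K, and the sum of Mcpt1 and Mcpt2, both detected, was 445. In mouse 1 of feed K, the next highest for Mcpt2 after mouse 3, the T cell sum was 9954. Other mice went the other way. Mouse 4 of feed K had the next highest chymase sum after mouse 3, at 735 with Mcpt2 detected, and a T cell sum of 1931. Mouse 10 of feed B had a T cell sum of 10937 and a chymase sum of 393, with neither chymase detected. The part of lymphocytes in the chymase signal was not tested.

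**Figure D4:**
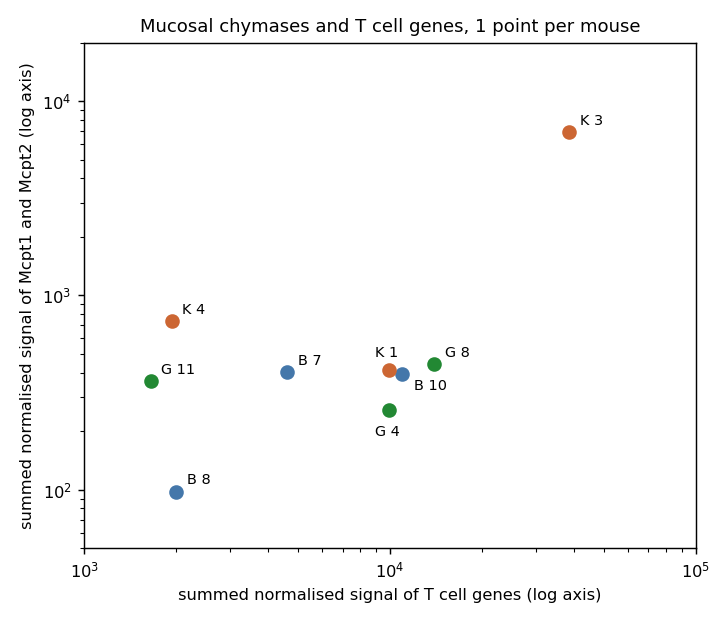
Summed normalised signal of Mcpt1 and Mcpt2 (vertical, log axis) against that of 9 T cell genes (horizontal, log axis), 1 point per mouse labelled by feed and mouse number. Mouse 3 of feed K is highest on both axes, at 6906 and 38556, and the other 8 mice lie between 97.6 and 735 for the chymases, where most spots were not detected, across T cell sums from 1649 to 13950.

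Of the B cell genes, Cd79a, Cd79b and Ms4a1 had their lowest signals in mice 1 and 3 of feed K. Cd79a, a chain of the B cell receptor complex, had a pair of probes. The brighter was detected in all mice, at log2 signals of 9.03 and 10.40 in mice 1 and 3 of feed K and of 10.69 to 12.18 in the other 7 mice, so that mouse 3 was close to the lowest of these. The other probe was not detected in those 2 mice, at 6.04 and 5.64, against 7.72 to 10.11. The B cell surface gene Ms4a1 was at 7.95 and 7.53 in log2 signal in those 2 mice, against 9.04 to 10.31. The plasma cell gene Igj, which encodes the joining chain of secreted antibodies, was not low there, at 12.48 and 13.54 against 11.19 to 14.48. Mcpt2 was the highest in mouse 3 and the next highest in mouse 1, whereas Mcpt1 in mouse 1 was not detected. The summed signal of the 4 B and plasma cell genes on the array was 6862 to 14585 on feed B, 5965 to 12458 on feed K and 6566 to 26687 on feed G. Their part in the result was not tested.

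Basophils share granule and receptor genes with mast cells. Of 5 basophil genes, 0 were detected on 3 arrays or more, and in mouse 3 of feed K the basophil protease gene Mcpt8 had a log2 signal of 5.77 and was not detected. Of 7 eosinophil genes as named in the files, 3 were tested, and 0 of these were highest in that mouse. The peroxidase gene Epx was detected on 0 arrays, the chemokine receptor gene Ccr3 on 7 and Siglec5, the name in the files for the Siglecf probe, on 5, mouse 3 of feed K among them. The summed signal of the list was 703 in that mouse, within the 576 to 1846 of the others. The ileal gene Fabp6, a carrier of bile acids, had log2 signals of 15.81, 4.67 and 17.84 in feed B mice 7, 8 and 10, 8.92, 12.19 and 11.81 in feed K mice 1, 3 and 4, and 8.10, 8.96 and 19.51 in feed G mice 4, 8 and 11, detected in all but mouse 8 of feed B. Slc10a2, the ileal bile acid transporter gene, was also highest in mouse 11 of feed G and next in mouse 10 of feed B, at 12.66 and 12.05. The sampled piece thus differed between mice in these markers of gut position. Mouse 3 of feed K was below mice 7 and 10 of feed B and mouse 11 of feed G for Fabp6, and above the others. Its smooth muscle markers summed to 84466, against 67481 in mouse 11 of feed G and 90895 to 114083 in the remaining mice. Any bearing of gut position or muscle content on the chymase signals was not tested.

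**Figure D5:**
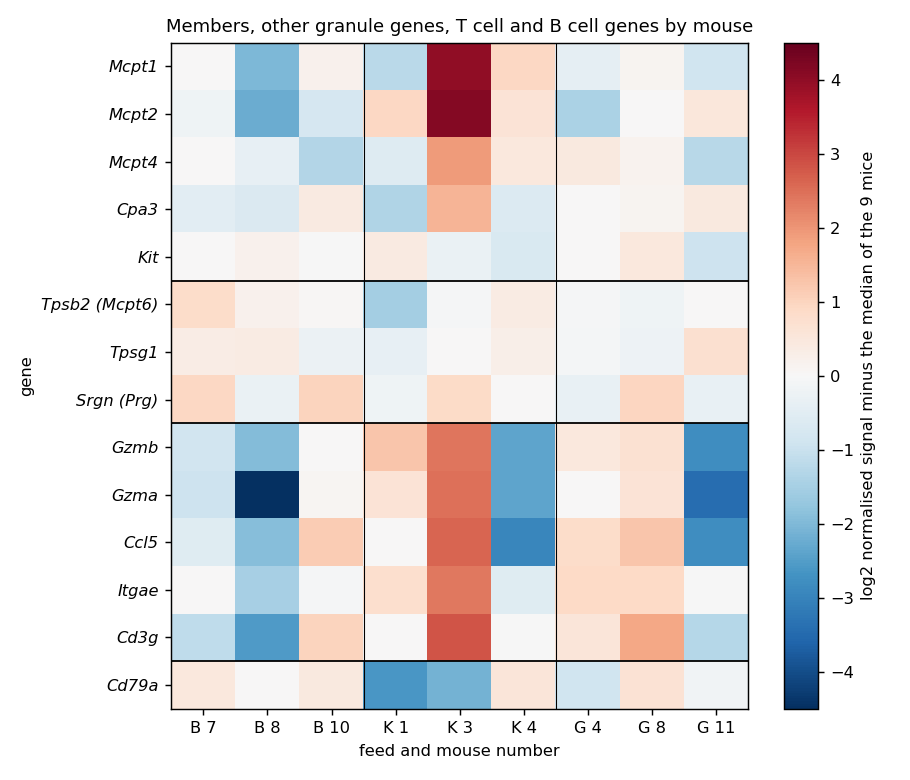
Log2 normalised signal minus the median of the 9 mice (colour) for 14 genes (rows) in the 9 mice (columns, by feed and mouse number), with lines between members, other granule genes, T cell genes and 1 B cell gene. The column of mouse 3 of feed K is high for Mcpt1, Mcpt2, Mcpt4, Cpa3 and the T cell genes shown, which leave out Cd4 and Cd3d. It is near 0 for Kit, Tpsb2 and Tpsg1, and low for the mean of the Cd79a probes.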

How the data were processed

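Jejunal RNA of 9 mice was measured on 1 array per mouse. The tables that the authors deposited per array give every spot an intensity, already corrected for background and position, with its standard deviation, signal-to-noise score and quality flag. A deposited table of linear signal for the whole series equals the assay-normalised column of the array tables in all 297108 values.

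Spots whose flag exceeded 5000 were dropped, and the deposited signals were quantile normalised with the arithmetic mean, log2 transformed and averaged per gene name. A gene was tested if detected on at least 3 arrays. Feeds were compared with limma 3.58.1 in R 4.3.3 (lmFit, eBayes, Benjamini-Hochberg over all genes tested), a step tested on simulated data. Permutation tests were exact and two-sided. Python 3.11.15, numpy 2.4.6, scipy 1.17.1 and Biopython 1.88 did the rest. The number of arrays limits the precision. The mice of a feed are separate animals. The array names run by feed, so array order and feed cannot be told apart.

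The members and gene lists were chosen with earlier results of these data known. Named genes are the members, genes of the lists, and the 5 genes most like Kit. List genes were matched by symbol, then by RefSeq accession, then by synonym, and 1 gene of the B cell list is not reported here. Promoter letters come from RefSeq. As alternatives, arrays were scaled by their median, the series table was used, only the brightest probe of a gene was taken, flagged spots were kept, filters on dim genes and the prior variance were changed, a pseudocount of 50 was added, and each mouse was left out. The scaling of the gap of mouse 3 of feed K and its removal from correlations were chosen after seeing the data. So were the folds at a level assumed for undetected spots.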

Additional observations from a re-analysis of the deposited data

Results flagged for a closer look

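Mouse 3 of feed K stood apart from the other 8 mice for Mcpt1, where its gap to the next mouse was 0.508 of the whole range of log2 signal, and for Mcpt2, where it was 0.504. Both exceeded Dixon's limit for 9 values, taking the mice of the 3 feeds as 1 set. The lowest mouse for both, and the next mouse for Mcpt1, had no detected signal. The corresponding value was 0.445 for Mcpt4 and 0.383 for Cpa3, below the limit. Chance alone puts about 5% of such sets beyond it when either end of the set is counted. Of the 9436 tested genes with no failed spot, 1.73% had their highest mouse beyond it. That count covers the upper end alone, so these percentages are not like measures.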

How the results depend on the processing

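No member passed the adjusted threshold in any comparison of feeds under any of the 8 alternatives or with any mouse left out. The count of all genes past the threshold stayed at 0 except without mouse 10 of feed B, so that leaving out 1 mouse gave 0 to 3 genes for the effect of feed, 0 to 10 between feeds K and B, 0 to 3 between feeds G and B and 0 between feeds G and K. Median scaling raised the median over all genes by 0.35 in the K minus B difference and by 0.47 in G minus B, and the series table by 0.16 and 0.23. At a signal-to-noise ratio of 5, 2 members in place of 4 were detected on at least 3 arrays. The height of mouse 3 of feed K kept its direction under each scaling, with a log2 gap to the next mouse of 2.93 to 3.86 for Mcpt1 and 3.01 to 3.62 for Mcpt2.

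Small differences turned sign. Under median scaling the difference of Kit was 0.16 for K minus B and 0.28 for G minus B, and its r was 0.13 with Mcpt1 and 0.11 with Mcpt2. In the series table Kit was 0.066 for G minus B, with r = 0.011 for both Mcpt1 and Mcpt2, and Mcpt4 was -0.19 for G minus B. With 1 mouse left out, the difference G minus B ranged from -0.48 to 0.63 for Mcpt1, from -0.032 to 0.85 for Mcpt4 and from -0.52 to 0.17 for Kit, and Kit ranged from -0.54 to 0.0063 for K minus B and from -0.28 to 0.41 for G minus K. The correlation of Mcpt2 and Mcpt4 ranged from -0.085 to 0.70 and that of Mcpt4 and Kit from -0.45 to 0.18. Without the 2 farthest mice, r was -0.18 for Mcpt1 and Mcpt2 and -0.17 for Mcpt2 and Mcpt4. For Mcpt4 and Kit, r was -0.055 with the pseudocount and rho was -0.083. The cause was not tested.

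No paired analysis was possible because each array came from a different mouse. Any 2 feeds share at most 1 mouse number, and the labels give no pairing by number.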
